A study of Drosophila melanogaster with 12 samples.

Results

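The genes described here are 31 *Drosophila melanogaster* serine protease genes that were listed as digestive by name or family. They are 11 trypsin genes named with Greek letters, 17 genes of the Jonah family (counting *yip7*, which lies beside the *Jon65A* genes) and 3 genes named *Ser*. The levels of *Ser12* did not follow that listing, with 0 to 23 counts in gut libraries and 1051 to 2934 in fat body libraries. Members were taken by gene name and family, with no threshold on a measured value, but with earlier results of these data known. All 31 were among the 10358 genes counted in guts, and 26 were among the 11056 genes counted in fat bodies. The fat body table does not list *gammaTry*, *deltaTry*, *Jon66Ci*, *Jon66Cii* and *Ser8*, so these 5 were not analysed there.

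Poly(A) RNA was sequenced from organs of adult females that carried *UAS-PntRNAi* and the *S106* GeneSwitch driver, in the Wolbachia-free, outbred Dahomey background carrying *w1118* that the study used. *S106* is active in gut and fat body when flies eat the inducer RU486, so that induced flies express double-stranded RNA against *pnt*, which encodes the ETS transcription factor Pointed. Flies were mated for 48 h and then fed for 6 days, with 200 µM RU486 for the induced flies and with vehicle for the controls, which carried the same transgenes. Each library was made from pooled organs, so p-values measure the spread between these pools. Guts were taken without the Malpighian tubules, and the fat body samples were the abdomens that remained after the gut and the reproductive organs had been removed. There were 3 induced and 3 control libraries for each of 2 tissues. All libraries carried both transgenes, so the effects of RU486 and of the RNAi cannot be told apart. The labels give no batch.

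Digestive serine proteases are secreted by midgut enterocytes as inactive precursors and cut dietary proteins in the gut lumen. Trypsins cut after the basic residues lysine and arginine, while the Jonah enzymes belong to the chymotrypsin-like branch of the same fold. In flies these genes sit in tandem arrays, and neighbouring copies can be active in different stretches of the midgut, with transcription that responds to diet.

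The libraries held 5916313 to 10254951 counts in guts and 4932359 to 9580571 in fat bodies. Levels are given as CPM, counts divided by library sizes that were scaled by TMM within a tissue. The targeted gene *pnt* had 21.97, 21.95 and 24.39 CPM in induced guts, against 29.21, 31.76 and 23.84 CPM in control guts. Its log2 fold change in guts was -0.31 (SE 0.21, adjusted p = 0.838, edgeR quasi-likelihood test), and -0.41 without the control library 112 (adjusted p = 0.164, edgeR), the only control that overlapped the induced guts. In fat bodies *pnt* had 8.06, 10.2 and 10.8 CPM with induction and 11.1, 11.2 and 13.4 CPM in controls (log2 fold change -0.30, SE 0.26, adjusted p = 0.986, edgeR). There each induced library lay below each control, where 8.27% of all fat body genes had groups that did not overlap in either direction. No fall of *pnt* passed the test in either tissue. One gut control, library 112, stood apart from the other control guts. By edgeR at 10% FDR, 5 gut genes were called with it and 879 without it. In fat bodies, the control library 106 had fat body markers that summed to 127140 CPM, against 35920 and 43968 CPM in controls 104 and 105. For the proteases without *Ser12*, library 105 was instead the control with the lowest share (0.00550%, against 0.0162% and 0.0163%). Values without libraries 112 and 106 are given beside the results below where they change a call or a sign.

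The proteases were among the most abundant transcripts of the gut. Together they took 7.92%, 10.6% and 9.31% of all counts in induced guts (libraries 107, 108 and 109). In control guts they took 12.9%, 13.7% and 6.72% (libraries 110, 111 and 112). Libraries 110 and 111 thus lay above every induced library and library 112 lay below every one of them. Jonah genes took 5.18%, 8.32% and 7.43% of counts in induced guts, against 9.45%, 10.0% and 4.61% in controls. Trypsins took 2.66%, 2.25% and 1.81% in induced guts, against 3.40%, 3.60% and 2.01% in controls. The *Ser* genes took under 0.1% in each gut library. The mean share was 9.29% ± 1.36 in induced and 11.1% ± 3.83 in control guts (SD, n = 3 each), and the control mean was 13.3% without library 112. The balance between families differed between libraries of a group. Trypsins made up 33.6%, 21.2% and 19.5% of the protease counts in induced guts, and 26.28%, 26.29% and 29.98% in control guts. In whole organs, fewer cells of a type and less RNA per cell cannot be told apart.

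**Figure D1:**
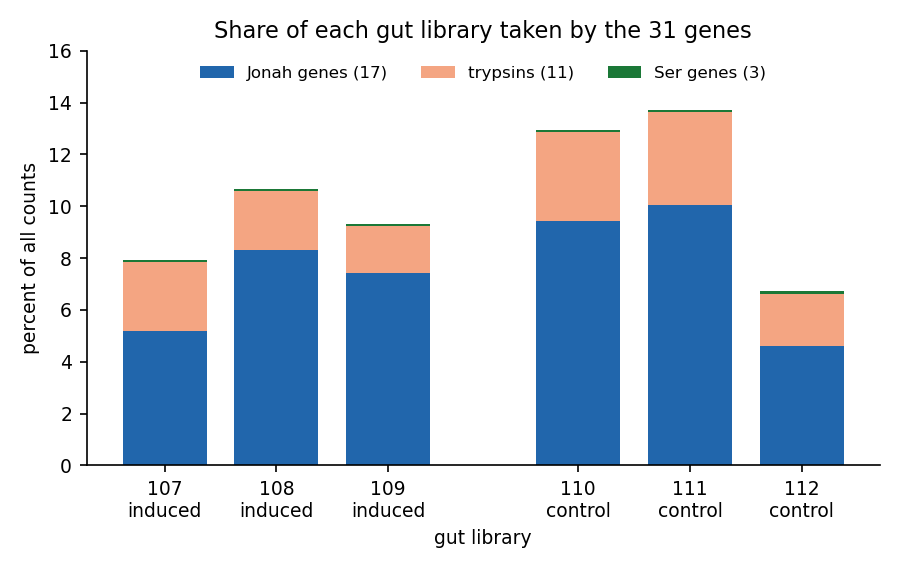
Percent of all counts in each gut library (vertical axis) taken by the 17 Jonah genes, the 11 trypsins and the 3 Ser genes, stacked, with the 3 induced libraries left of the 3 control libraries. Controls 110 and 111 reach 12.9% and 13.7%, induced libraries lie between 7.92% and 10.6%, and control 112 is at 6.72%.

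Most of that signal came from 5 genes. *yip7*, *Jon65Aiii*, *Jon65Aiv*, *alphaTry* and *betaTry* held 72.9% to 75.8% of all protease counts in each of the 6 gut libraries. Per kilobase of exon, *yip7* had the highest mean level of all 10279 gut genes with an annotated length, at 25734 CPM per kb with a range of 19401 to 31859 over the 6 libraries. *Jon65Aiii* was sixth at 21882 CPM per kb (14663 to 27699) and *Jon65Aiv* was eighth at 15643 CPM per kb (8389 to 22809). *alphaTry* and *betaTry* followed at 9991 and 9779 CPM per kb, with ranges of 6732 to 12580 and 5977 to 14406. Of the 31 genes, 11 were among the 100 most abundant gut genes per kilobase and 27 were among the first 1000.

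The order below these was graded. *Jon25Biii* (5852 CPM per kb), *epsilonTry* (4179), *Jon25Bi* (2789), *Jon99Cii* (2601) and *Jon74E* (2190) came next. *Jon99Ciii*, *thetaTry*, *Jon25Bii*, *Jon99Fii*, *Ser6*, *Jon65Aii* and *lambdaTry* had means from 1581 to 717 CPM per kb. *Jon99Ci*, *gammaTry*, *Jon65Ai*, *kappaTry*, *Jon99Fi*, *iotaTry*, *etaTry*, *Jon44E*, *zetaTry* and *deltaTry* had means from 595 down to 118 CPM per kb. *Jon66Ci* (28.0), *Ser8* (14.1), *Jon66Cii* (1.59) and *Ser12* (1.01) were the lowest. Neighbours in this order had overlapping ranges over the 6 libraries for every pair except *Ser8* and *Jon66Cii*. The ordering of some neighbours was nonetheless the same in each library, and *yip7* lay above *Jon65Aiii*, *Jon65Aiii* above *Jon65Aiv* and *Jon74E* above *Jon99Ciii* in 6 of 6 libraries.

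**Figure D2:**
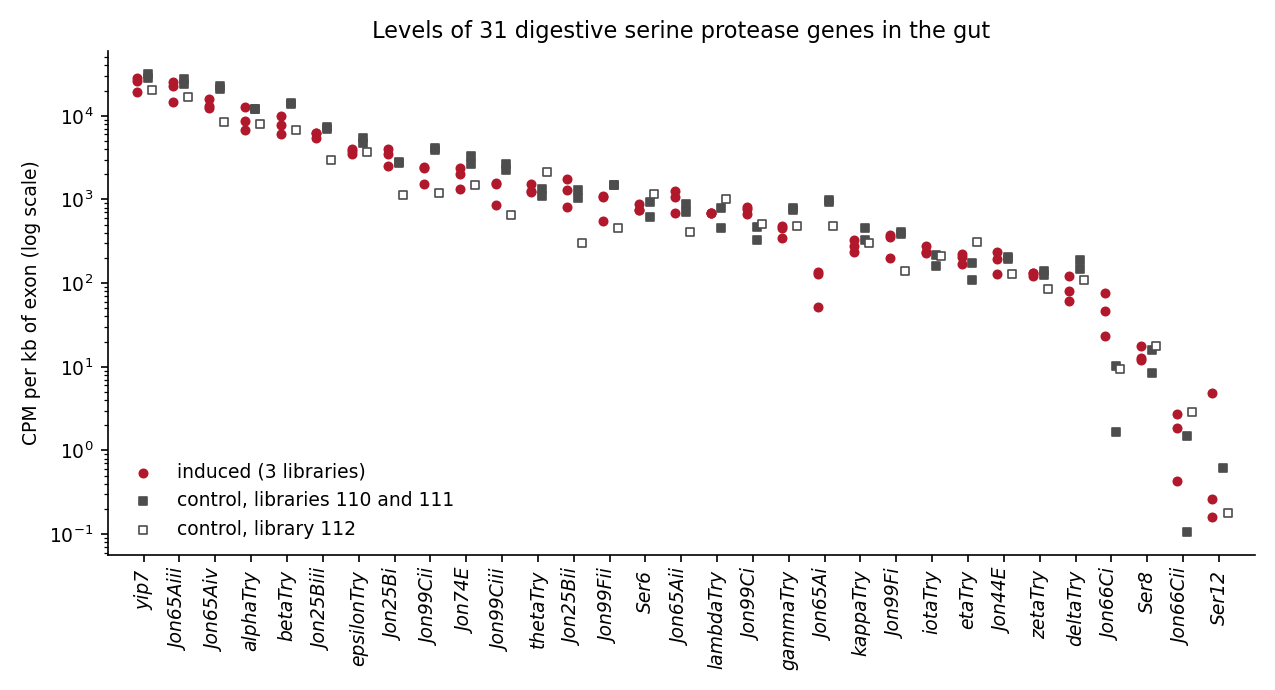
Level of each of the 31 genes in each gut library, in CPM per kb of exon on a log scale, in order of the mean, with induced libraries (circles) left of control libraries (squares, open for library 112); the control library in which Ser12 had 0 counts is not drawn. yip7, Jon65Aiii and Jon65Aiv lie highest, Jon65Ai separates downwards and Jon66Ci upwards in induced guts, and library 112 lies low for most Jonah genes.

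The genes sit in 6 clusters and as 5 single genes on release 6 of the genome (positions from Ensembl's BDGP6 annotation). The 11 trypsins lie within 20.7 kb of 2R:11336840-11357537. *Jon25Biii*, *Jon25Bii* and *Jon25Bi* lie within 5.2 kb at 2L:4949941-4955144. *yip7*, *Jon65Aiv*, *Jon65Aiii*, *Jon65Aii* and *Jon65Ai* lie within 19.2 kb at 3L:6035216-6054443. *Jon66Ci* and *Jon66Cii* lie at 3L:8391540-8393649, *Jon99Ciii*, *Jon99Cii* and *Jon99Ci* at 3R:29922216-29926189, and *Jon99Fii* and *Jon99Fi* at 3R:30487016-30489895. *Jon44E* and *Ser8* (2R), *Jon74E* (3L), *Ser12* (2L) and *Ser6* (X) stand alone. Tandem copies such as *gammaTry* and *deltaTry* are close in sequence. How reads that match several copies were counted, and whether counting used the strand, is not given in the sources used here, so the values of close copies are uncertain relative to each other. *deltaTry* and *Jon44E* also share exon sequence with genes on the opposite strand, *CG13202* and *CG8586*. For *deltaTry* the shared stretch is short, from 2R:11356114 to 2R:11356128. *CG13202* had 36 to 107 counts in gut libraries, against 370 to 1743 for *deltaTry*. No member had counts identical to those of another gene in every library.

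Library 112 differed from the other control guts in a gene-specific way. It was the lowest of the 6 gut libraries for 11 of the 31 proteases, where 23.1% of all gut genes had their lowest value there. These 11 were *zetaTry* and 10 Jonah genes, namely the 3 *Jon25B* genes, *Jon44E*, *Jon65Aii*, *Jon65Aiv*, *Jon99Cii*, *Jon99Ciii*, *Jon99Fi* and *Jon99Fii*. It was the highest for *etaTry*, *thetaTry*, *lambdaTry*, *Jon66Cii* and *Ser6*, 5 of 31 genes, against 22.5% of all gut genes. The median log2 ratio of library 112 over the mean of libraries 110 and 111 was -1.01 for Jonah genes and -0.46 for trypsins, against -0.08 for all gut genes. Some marker lists of other cells had their extreme value in library 112. Its 9 enteroendocrine markers summed to 719 CPM, against 353 to 569 CPM in the other gut libraries. Its 8 ovary markers summed to 13.5 CPM, against 39.8 to 850 CPM, a wide range among those libraries. Oenocyte markers were also lowest there, at 41.8 CPM against 52.5 to 98.6 CPM. Spermatheca markers were lowest there as well, at 0 CPM against 0.123 to 16.1 CPM. Sums of muscle, gut, fat body, tubule and progenitor markers in library 112 lay within the range of the other gut libraries. For gut markers that range was widened by control library 110, at 14749 CPM against 7829 to 9629 CPM in all other gut libraries. The part of such cells in the protease levels was not tested. Over single proteases the log2 ratio of library 112 over the mean of libraries 110 and 111 ran from -1.96 (*Jon25Bii*) to 1.87 (*Jon66Cii*). *Jon25Bii* had 717, 1557 and 1174 CPM in induced guts, against 938, 1156 and 270 CPM in control guts. *etaTry* had 205, 156 and 188 CPM in induced guts, against 157, 99.8 and 279 CPM in control guts. With library 112 the median coefficient of variation among control guts was 36.4% over the 31 genes. It was 23.9% among the 3 induced guts. Between libraries 110 and 111 it was 10.9%, from fewer libraries and with the most different control left out. That value cannot be set against those of 3 libraries.

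The first comparison asked which proteases differed with induction in the gut. None of the 31 passed 10% FDR by edgeR with all 6 libraries, where 5 of 10358 genes did (0.0483%). At an unadjusted p under 0.05 there were 5 members, *Jon65Ai*, *gammaTry*, *deltaTry*, *Jon66Ci* and *Jon99Ci*, against 5.43% of all genes. By DESeq2, *Jon65Ai* passed as lower and *Jon66Ci* as higher in induced guts, 2 of 31 members where 0.417% of genes passed (0.359% as higher and 0.0582% as lower). The log2 fold change was below 0 for 18 of 31 members and for 56.1% of all genes, and the median was -0.12 over members and -0.06 over all genes. For 26 of the 31 genes the 95% interval of the log2 fold change spanned 0. Groups did not overlap for 5 members, where 10.2% of all genes had groups that did not overlap. Induced guts were higher for 3 of these (*iotaTry*, *Jon66Ci* and *Jon99Ci*, against 5.38% of all genes) and lower for 2 (*gammaTry* and *Jon65Ai*, against 4.81%).

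*Jon65Ai* had the largest decrease. It had 129, 124 and 49.7 CPM in induced guts, against 930, 896 and 452 CPM in control guts. The lowest control, library 112, lay well above the highest induced library. The log2 fold change was -2.91 (SE 0.45, 95% interval -3.95 to -1.88), which is 7.52-fold lower with induction. The adjusted p was 0.154 by edgeR and 3.9e-09 by DESeq2. Without library 112 it was -3.17 and passed by edgeR as well (adjusted p = 0.0453). By DESeq2 the gene was called lower whichever gut library was left out.

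No neighbour of *Jon65Ai* in the cluster passed the test with all 6 libraries. *Jon65Aii*, the next gene along, had 567, 880 and 1038 CPM in induced guts, against 583, 738 and 338 CPM in control guts (log2 fold change 0.58, SE 0.35, adjusted p = 0.836, edgeR). *Jon65Aiii* had 12830, 22125 and 20091 CPM in induced guts, against 24237, 20808 and 14789 CPM in control guts (log2 fold change -0.12, SE 0.40). *Jon65Aiv* had 11205, 14530 and 11966 CPM with induction, against 18946, 20619 and 7584 CPM without (log2 fold change -0.32, SE 0.45). Induced guts lay below libraries 110 and 111 and above library 112 for *Jon65Aiv*. Without library 112 its log2 fold change was -0.64, with an adjusted p of 0.222 by edgeR and 0.0135 by DESeq2. *yip7*, at the far end of the cluster, had 17539, 25635 and 23789 CPM in induced guts, against 28800, 25545 and 18274 CPM in control guts (log2 fold change -0.12, SE 0.39, adjusted p = 0.956, edgeR). For *yip7* and *Jon65Aiii* the groups overlapped, and the sign of the fold change turned when library 107 or library 110 was left out.

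*Jon66Ci* had the largest increase, from a low level. It had 19.5, 39.1 and 64.3 CPM in induced guts, against 8.59, 1.39 and 7.95 CPM in control guts, and every induced library lay above every control. The counts behind these values were 109, 353 and 480 with induction and 70, 16 and 53 without. The log2 fold change was 2.80 (SE 0.67, 95% interval 1.26 to 4.34). The adjusted p was 0.765 by edgeR and 0.00128 by DESeq2, and without library 112 it was 0.0885 by edgeR. Leaving out the induced library 109, the highest, ended the DESeq2 call (adjusted p = 0.385). Its neighbour *Jon66Cii* had 1 to 17 counts in each gut library and a log2 fold change of 0.29 (SE 0.94).

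The *Jon99C* cluster held genes on both sides of 0. *Jon99Ci* had 614, 706 and 731 CPM in induced guts, against 430, 295 and 461 CPM in control guts. The groups did not overlap, and the log2 fold change was 0.79 (SE 0.25, adjusted p = 0.836 by edgeR and 0.334 by DESeq2). Without library 112 it was 0.93, which passed 10% FDR by both tools (adjusted p = 0.0814 by edgeR and 0.00136 by DESeq2). *Jon99Cii* and *Jon99Ciii* lie within 4.0 kb of it and had lower means with induction. *Jon99Cii* had 1322, 2092 and 2062 CPM in induced guts, against 3373, 3559 and 1044 CPM in control guts (log2 fold change -0.54, SE 0.47). *Jon99Ciii* had 1074, 1942 and 1887 CPM in induced guts, against 2803, 3253 and 803 CPM in control guts (log2 fold change -0.48, SE 0.51). For both, library 112 was the lowest of all and the other controls were the highest. Without library 112 their log2 fold changes were -0.91 and -0.88, called by DESeq2 (adjusted p = 0.00715 and 0.0314) and not by edgeR (adjusted p = 0.108 and 0.129).

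**Figure D3:**
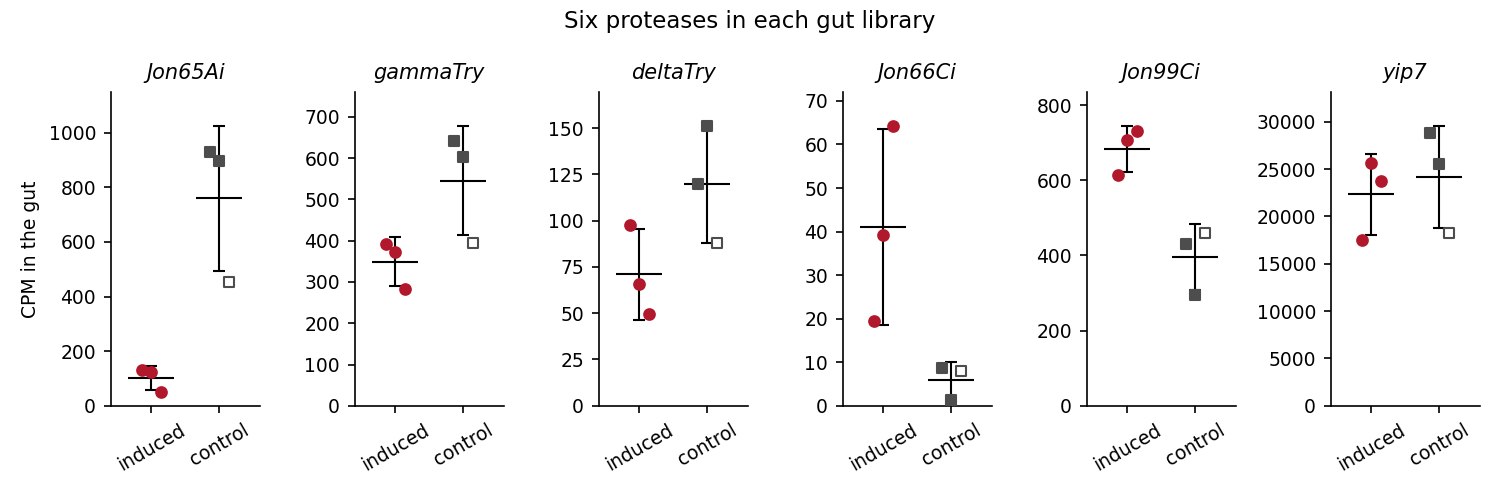
CPM of Jon65Ai, gammaTry, deltaTry, Jon66Ci, Jon99Ci and yip7 in each gut library, with induced libraries left of controls (library 112 open); long bars are means and error bars are 1 SD of 3 libraries, and each vertical axis starts at 0. Jon65Ai is at 49.7 to 129 CPM in induced and 452 to 930 CPM in control guts, while the groups of yip7 overlap.

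Among the trypsins, the largest decreases were in *gammaTry* and *deltaTry*. *gammaTry* had 393, 374 and 282 CPM in induced guts, against 641, 602 and 394 CPM in control guts. The groups did not overlap, although library 112 exceeded the highest induced library only narrowly. Its log2 fold change was -0.64 (SE 0.27, adjusted p = 0.836, edgeR), and -0.82 without library 112 (adjusted p = 0.0814 by edgeR and 0.00484 by DESeq2). *deltaTry* had 97.9, 65.6 and 49.6 CPM in induced guts, against 120, 151 and 88.0 CPM in control guts. Its log2 fold change was -0.76 (SE 0.31, adjusted p = 0.836, edgeR), and -0.92 without library 112 (adjusted p = 0.113 by edgeR and 0.0418 by DESeq2).

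Between *gammaTry* and *deltaTry* lie 2 further serine protease genes, which are no members. *CG30025* had 75.005, 62.53 and 51.86 CPM in induced guts, against 130, 200 and 119 CPM in control guts. It was lower by DESeq2 (log2 fold change -1.22, adjusted p = 0.0155) and not by edgeR (log2 fold change -1.25, SE 0.27, adjusted p = 0.727). *CG30031* had 1250, 593 and 756 CPM in induced guts, against 2003, 2168 and 751 CPM in control guts (log2 fold change -0.92, SE 0.45, adjusted p = 0.836, edgeR). Without library 112 both passed by edgeR, *CG30025* at -1.37 (adjusted p = 0.0566) and *CG30031* at -1.25 (adjusted p = 0.0903). All of the genes from *gammaTry* to *deltaTry* in this stretch thus had negative estimates, and as these are close copies their counts may not be separate measurements.

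The abundant trypsins had groups that overlapped. *alphaTry* had 10818, 7408 and 5789 CPM in induced guts, against 10260, 10341 and 6936 CPM in control guts (log2 fold change -0.20, SE 0.37, adjusted p = 0.912, edgeR). *betaTry* had 10618, 8362 and 6401 CPM in induced guts, against 15429, 14872 and 7159 CPM in control guts (log2 fold change -0.56, SE 0.41, adjusted p = 0.843, edgeR). Library 107 was the highest induced library for both. *epsilonTry* had 3136, 3295 and 2912 CPM in induced guts, against 4528, 3882 and 3059 CPM in control guts (log2 fold change -0.30, SE 0.28). Without library 112, *betaTry* and *epsilonTry* were lower by DESeq2 (adjusted p = 0.0206 and 0.0936) and not by edgeR (adjusted p = 0.157 and 0.256). *iotaTry* was the only trypsin whose induced libraries all lay above the controls, at 226, 187 and 195 CPM with induction and 179, 130 and 172 CPM in controls. Its log2 fold change of 0.33 (SE 0.22) gave an adjusted p of 0.837 by edgeR.

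None of the other proteases passed with all 6 libraries. *kappaTry* (-0.37), *thetaTry* (-0.18), *lambdaTry* (-0.14), *etaTry* (0.04) and *zetaTry* (0.15) had log2 fold changes in the gut with intervals that spanned 0. Without library 112 the values were -0.47 for *kappaTry*, 0.16 for *thetaTry*, 0.16 for *lambdaTry*, 0.53 for *etaTry* and -0.02 for *zetaTry*, so that 3 of these 5 signs turned. Intervals also spanned 0 for the Jonah genes *Jon74E* (-0.40), *Jon99Fii* (-0.32), *Jon99Fi* (-0.01), *Jon25Biii* (0.06), *Jon44E* (0.08), *Jon25Bii* (0.54) and *Jon25Bi* (0.58). Without library 112 the log2 fold changes of *Jon25Bi* and *Jon25Bii* were 0.28 and 0.15, those of *Jon74E*, *Jon99Fii* and *Jon99Fi* were -0.65, -0.68 and -0.34, and the signs of *Jon25Biii* (-0.24) and *Jon44E* (-0.09) turned. *Ser6* (-0.18) and *Ser8* (0.02) had groups that overlapped, with values of 0.06 and 0.25 without library 112. *Ser12* had 23, 2 and 1 counts in induced guts, against 0, 6 and 1 in control guts, and its log2 fold change of 2.39 (SE 1.38) became -0.44 without library 107.

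**Figure D4:**
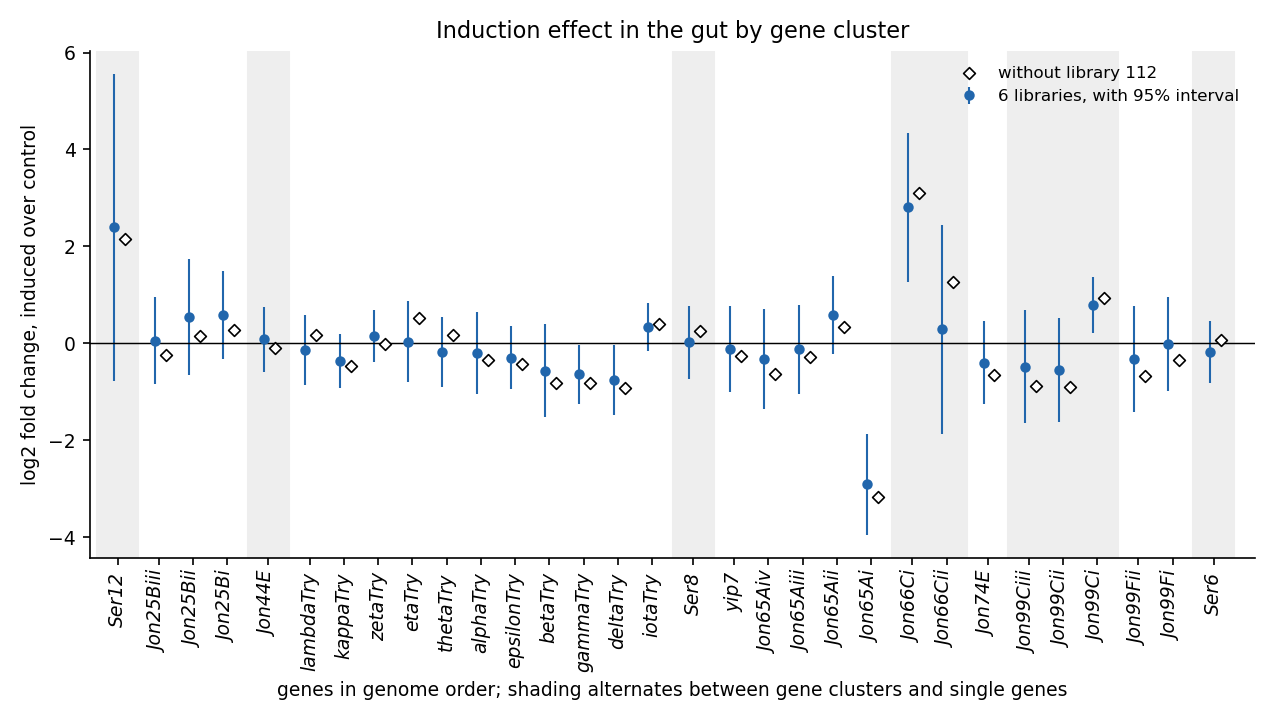
Log2 fold change, induced over control guts, for the 31 genes in genome order; filled points use all 6 libraries with 95% intervals from edgeR and open diamonds leave out library 112, and the shading alternates between clusters and single genes. Jon65Ai at -2.91 stands apart from the other 4 genes of its cluster, and Jon66Ci is at 2.80.

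Leaving out library 112 changed the counts of calls for these genes and for the whole table. By edgeR, 2 members were then higher (*Jon66Ci* and *Jon99Ci*) and 2 lower (*Jon65Ai* and *gammaTry*), where 8.49% of all genes passed (2.23% as higher and 6.26% as lower). By DESeq2, 2 were higher and 8 were lower, 10 of 31 members, where 21.9% of tested genes passed. The 8 lower ones were *betaTry*, *gammaTry*, *deltaTry*, *epsilonTry*, *Jon65Ai*, *Jon65Aiv*, *Jon99Cii* and *Jon99Ciii*, where 11.4% of tested genes passed as lower and 10.5% as higher. Against libraries 110 and 111 alone, 13 members lay lower and 3 lay higher in all induced guts, where 27.5% and 24.2% of all genes did (51.7% in either direction). The member median was then -0.24, and the median of all genes was -0.03.

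Other digestive peptidases and regulators in the gut had few calls with all 6 libraries, where the edgeR p before adjustment was under 0.05 for 5.43% of all gut genes, 0.417% passed by DESeq2 and 10.2% had groups that did not overlap. Of 26 measured serine proteases outside the member list, none passed by edgeR (4 at an unadjusted p under 0.05), and *CG30025* alone passed by DESeq2. The median log2 fold change of these genes was -0.03, against -0.06 over all genes. Without library 112, 1 was higher and 4 were lower by edgeR, where 8.49% of all genes passed, and the median was 0.06. Of 21 measured peptidases of other classes on a list of gut peptidases, none passed by either tool (1 at an unadjusted p under 0.05 by edgeR), with a median of -0.08. Without library 112, 1 was higher and 2 were lower by edgeR, and the median was -0.07. Of 19 measured genes for midgut transcription factors and signalling or sugar-sensing regulators, none passed by either tool (4 at an unadjusted p under 0.05 by edgeR), and 17 had log2 fold changes below 0 with a median of -0.34, where 56.1% of all genes were below 0 with a median of -0.06. Without library 112, 3 of the 19 were lower and 0 higher by edgeR, where 6.26% of all genes passed as lower and 2.23% as higher. The median of the 19 was then -0.46, against -0.03 over all genes. Among these, *nub*, which encodes a POU-domain factor of enterocytes, had 25.9, 21.0 and 17.8 CPM in induced guts, against 43.0, 42.2 and 33.4 CPM in control guts (log2 fold change -0.88, SE 0.23, adjusted p = 0.836, edgeR). Without library 112 its value was -0.97 (adjusted p = 0.0662, edgeR). *Ptx1* and *lab*, homeobox genes of midgut regions, also had groups that did not overlap, with log2 fold changes of -0.74 (SE 0.25) and -0.68 (SE 0.26), and without library 112 of -0.82 and -0.70 (adjusted p = 0.107 and 0.136, edgeR).

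The second comparison asked how the levels differed between tissues, with both tissues scaled together over the 10005 shared genes. Of the 26 proteases, 25 were higher in gut than in fat body and *Ser12* was lower, where 53.2% of all genes differed, 25.5% as higher in gut and 27.7% as lower (edgeR, 10% FDR). For those 25 genes the fitted difference was between 125-fold and 3213-fold, and the largest adjusted p over the 26 genes was 8.0e-07. *Jon25Bii* and *Jon25Bi* had the largest differences. *Jon25Bii* had 311 to 1763 CPM in guts, against 0 to 0.875 CPM in fat bodies (log2 difference 11.65, SE 0.66). *Jon25Bi* had 1141 to 3940 CPM in guts, against 0 to 4.05 CPM in fat bodies (log2 difference 11.20, SE 0.71). *Jon44E* had the smallest difference among the 25, with 205 to 375 CPM in guts against 1.34 to 4.45 CPM in fat bodies (log2 difference 6.96, SE 0.35). *zetaTry* came next, with 92.1 to 151 CPM in guts against 0 to 3.06 CPM in fat bodies (log2 difference 7.68, SE 0.58).

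*Jon44E* shares exon sequence with *CG8586* on the other strand, which was the more abundant of the pair in fat bodies. *CG8586* had 15.7, 16.7 and 26.99 CPM in induced fat bodies, against 19.3, 21.8 and 72.2 CPM in control fat bodies. *Jon44E* had 2.49, 1.70 and 2.78 CPM in induced fat bodies, against 1.55, 2.01 and 5.06 CPM in control fat bodies, so that both genes were highest in library 106. Reads of the 2 genes were not separated here.

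*Ser12* ran the other way. Its gut levels on the scale of both tissues were 4.73, 0.251 and 0.155 CPM with induction, against 0, 0.573 and 0.173 CPM in controls. Its fat body levels on that scale were 178, 217 and 228 CPM with induction, against 306, 357 and 185 CPM in controls, so that each fat body library exceeded each gut library (log2 difference -8.47, SE 0.69, adjusted p = 3.6e-07, edgeR). Markers of the spermatheca, the female organ that stores sperm, had the same tissue pattern. The paper states that reproductive anatomy was removed from the abdomen and does not name the spermatheca. The 5 markers measured in fat bodies summed to 704 to 1137 CPM with induction, against 673 to 1267 CPM in controls. The 3 markers measured in guts, *Send1*, *CG17239* and *CG9897*, summed to 16.1, 0.554 and 1.07 CPM with induction, against 0.123, 2.60 and 0 CPM in controls. The gut library with most *Ser12*, library 107, was also the one with most of these markers. The part of spermathecal tissue in the *Ser12* counts was not tested.

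**Figure D5:**
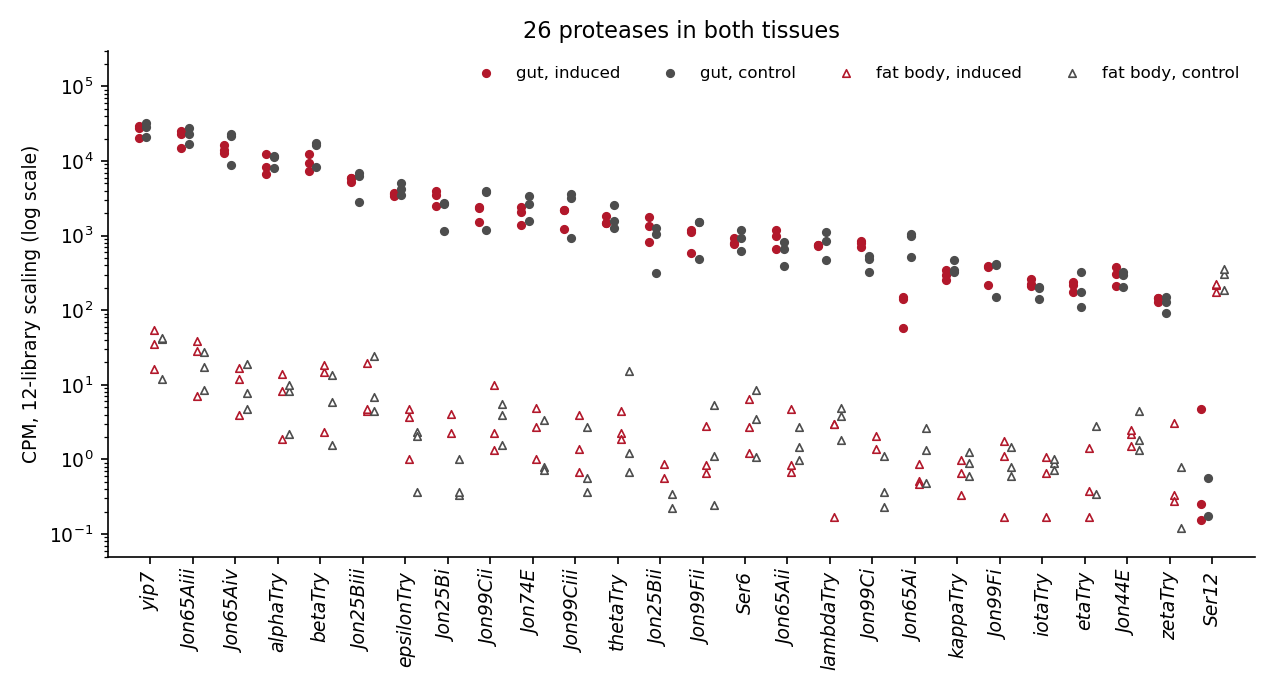
CPM of the 26 proteases measured in both tissues, on a log scale with both tissues scaled together; circles are guts and triangles fat bodies, induced (red) left of control (grey) within each tissue, and libraries with 0 counts are not drawn. The 25 genes other than Ser12 lie 125-fold to 3213-fold lower in fat body by the fitted means, and Ser12 lies at 178 to 357 CPM in fat body.

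The proteases were low in fat bodies. They took 0.0276%, 0.0450% and 0.0495% of all counts in induced fat bodies, against 0.0522%, 0.0456% and 0.0332% in control fat bodies. Without *Ser12*, the 25 others took 0.00633%, 0.0169% and 0.0244% with induction, against 0.0162%, 0.00550% and 0.0163% in controls. Their mean fat body level was 0.0304% to 0.805% of the gut level, with a median of 0.174%. Gut markers had a median of 0.235% over 16 genes and a range of 0.0271% to 8.08%. The order of levels was alike in both tissues (Spearman's rho 0.80 across 25 genes, which are not independent and share their libraries). The summed level of the 25 proteases on that scale was 52.8, 131 and 222 CPM with induction, against 137, 48.9 and 178 CPM in controls. The 16 gut markers summed to 31.97, 53.2 and 47.1 CPM with induction, against 59.01, 54.6 and 45.96 CPM in controls. These sums did not follow the same order over the libraries. They leaned on *Myo31DF* (13.2 to 18.7 CPM in fat bodies, 8.08% of its gut level) and *mex1* (1.37 to 22.8 CPM, 2.61%). The sums therefore cannot show how much gut tissue each library held. The part of gut tissue in these counts was not tested.

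No protease passed the test of induction in fat bodies, by edgeR (0 of 26, where 0% of all genes passed) or by DESeq2 (0 of 26, where 0.145% passed), and none had an unadjusted p under 0.05 by edgeR, where 2.73% of all genes did. Groups overlapped for each of the 26 genes, where 8.27% of all genes had groups that did not overlap. Of the 25 genes other than *Ser12*, 18 had fewer than 10 counts in at least 1 library. The spread between libraries was also wide, with a median coefficient of variation over the 26 genes of 76.0% among induced and 70.6% among control fat bodies. The part of depth and of this spread in the lack of calls was not tested. *yip7*, the most abundant of the 25, had 18.6, 39.8 and 59.8 CPM in induced fat bodies, against 47.9, 13.1 and 48.7 CPM in control fat bodies (log2 fold change 0.11, SE 0.57, adjusted p = 0.991, edgeR). *Jon65Ai* had 3, 5 and 8 counts in induced fat bodies, against 12, 4 and 23 in control fat bodies (log2 fold change -1.26, SE 0.70, adjusted p = 0.986, edgeR). *Ser12* had 202, 247 and 252 CPM in induced fat bodies, against 353, 393 and 210 CPM in control fat bodies (log2 fold change -0.45, SE 0.28, adjusted p = 0.986, edgeR). Library 106 was the control that overlapped the induced libraries for *Ser12*. Without library 106 none passed by edgeR (0% of all genes) or DESeq2 (0.808% of tested genes), and *Jon74E* and *Jon99Ciii* lay higher and *lambdaTry* and *Ser12* lower in all induced fat bodies, where 10.4% and 11.7% of all genes did (22% in either direction). The signs of *Jon25Biii* (-0.34 with all libraries and 0.74 without library 106), *Jon44E* (-0.31 and 0.39) and *Jon99Fii* (-0.64 and 1.06) then turned. Leaving out other fat body libraries turned signs too, such as *thetaTry* (-1.07 and 1.56 without library 104) and *Jon65Aii* (0.28 and -1.18 without library 103).

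The third comparison set the induction effects of the tissues against each other as an interaction. No protease passed, by edgeR (0 of 26, where 0% of all genes passed) or by DESeq2 (0 of 26, where 0.13% passed), and none had an unadjusted p under 0.05 by edgeR, where 3.42% of all genes did. The smallest unadjusted p by edgeR were 0.0557 for *Ser12*, 0.0732 for *Jon65Ai* and 0.115 for *epsilonTry*, each with an adjusted p of 0.9995. For *Jon65Ai* the difference of log2 fold changes, gut minus fat body, was -1.64 (SE 0.84, 95% interval -3.46 to 0.18). For *epsilonTry* it was -1.28 (SE 0.75, 95% interval -2.92 to 0.36). For *Ser12* it was 2.78 (SE 1.31, 95% interval -0.08 to 5.63), a value that rested on the 23 counts of library 107 and was -0.0014 without that library.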

How the data were processed

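The authors removed duplicate reads by molecular identifiers, aligned with HISAT2 to genome release 6, and counted reads per gene with featureCounts. They deposited raw counts per tissue, and variance-stabilised values from DESeq2, a log-like score used here in 1 alternative only. Genes without counts or outside the authors' earlier experiment had been dropped. Their own test used DESeq2 with independent hypothesis weighting, which was not run. Counts were tested here with edgeR 4.0.16 (quasi-likelihood F-test, TMM, genes with at least 1 count, Benjamini-Hochberg adjustment, 10% FDR, two-sided) in R 4.3.3, per tissue. Tissue and interaction contrasts used 4 group means over 12 libraries. DESeq2 1.42.0 and limma 3.58.1 were alternatives, beside other scaling, filters and leaving out each library. Groups came from each sample's induction label, as the treatment text gives RU486 for every sample, and libraries are named by their label numbers. Members and lists were chosen with earlier results of these data known. Full values went to members called by either tool, with the 4 largest changes in each direction in the gut, the 4 highest levels, the 2 largest and 2 smallest tissue differences or the 3 smallest interaction p. Others were named afterwards. Pools are the replicates. The edgeR steps were run on simulated counts with changes put in, and the DESeq2 and limma steps were not.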

Additional observations from a re-analysis of the deposited data

How the results depend on the processing

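In the gut, counts of proteases called higher and lower were 0 and 0 by edgeR. They stayed so with DESeq2's size factors in edgeR, normalization without the proteases, a filter on low counts and limma. In 1 fit of both tissues they were also 0 and 0. That fit held only the 26 proteases counted in both tissues, so *gammaTry*, *deltaTry*, *Jon66Ci*, *Jon66Cii* and *Ser8* could not be called there. DESeq2 called 1 higher and 1 lower. Leaving out a library gave 0 to 2 higher and 0 to 2 lower by edgeR, with calls only without library 112, and 0 to 2 higher and 1 to 8 lower by DESeq2. Over all gut genes, edgeR called 5 and DESeq2 43, and without library 112 they called 879 and 1918. Over all fat body genes, edgeR called 0 and DESeq2 16. The cause was not tested. The DESeq2 fits without single libraries were added after the data had been seen. With 1 library left out, the sign of the edgeR log2 fold change turned at least once for 13 of 31 proteases in guts and 15 of 26 in fat bodies, none of them called with all libraries. Cases in guts include *Jon65Aiii* without library 107 (0.0918 by edgeR, 0.0963 by DESeq2) or library 110 (0.0439 and 0.0637), *yip7* without library 107 (0.0399 and 0.0442) or library 110 (0.0268 and 0.0470), *Ser12* without library 107 (-0.44 and -0.35), *Jon44E* without library 109 (-0.12 by edgeR) or library 112 (-0.09 by edgeR). By DESeq2 alone, *alphaTry* also turned without library 109 (0.0198). Cases in fat bodies include *yip7* without library 103 (-0.34 by both tools) or library 105 (-0.28 by both), and the interaction of *Ser12* was -0.0014 without library 107. Over all libraries left out, *Jon65Ai* stayed between -3.17 and -2.58 by edgeR. The fat body share without *Ser12* averaged 0.0159% with induction and 0.0127% in controls, a setting added after the data had been seen. In the tissue comparison, 25 genes were higher and 1 lower under each alternative, and fat body and interaction counts of calls were 0 under each. No paired analysis was possible because the labels give no replicate numbers.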
